A study of Mus musculus with 8 samples.

Results

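Somatostatin (Sst) and the somatostatin receptors Sstr1, Sstr2 and Sstr5 were followed as 4 named genes among the 16116 genes used, by reporter line, by BMP4 exposure and by the hormone that led in each cell. Enteroendocrine cells were sorted singly, as live reporter-positive cells, from intestinal organoids of C57BL/6 mice, a culture of gut epithelium grown from stem cells. The reporter lines were Tac1-Cre, Gip-Cre and Gcg-Venus, so cells were chosen by the activity of a tachykinin, a GIP or a glucagon reporter, and each plate holds what that reporter gates. The 5 plates that held every condition (2 Tac1, 2 Gcg and 1 Gip) kept untreated cells in columns 1 to 6, cells given BMP4 for 24 h in columns 7 to 12 and cells given it for 4 d in columns 13 to 24. A difference between conditions and one between regions of a plate cannot be told apart. A further 3 Tac1 plates held 1 condition each (24 h on 1 plate, 4 d on 2 plates). No label states whether different plates hold independent cultures. The p-values for BMP4 and for reporter lines below therefore measure variation from plate to plate. Those for hormone classes measure variation between combinations of plate and condition, several of which lie on the same plate.

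Somatostatin is a secreted peptide made by D cells. It acts over short distances on receptors coupled to inhibitory G proteins, which lower cyclic AMP, open potassium channels and close calcium channels, and thereby hold back the release of other hormones. In the gut it restrains the cells that make glucagon-like peptides, GIP and serotonin. BMP ligands signal through Smad proteins, switch on the Id genes and are most active towards the tip of the villus, where enteroendocrine cells change the hormones they make.

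In GENCODE's mouse annotation of GRCm38, the build called mm10, Sst lies at chr16:23889573-23890958 on the minus strand and Sstr1 at chr12:58211772-58214444 on the plus strand. Sstr5 lies at chr17:25489875-25497288 on the minus strand. Sstr2 lies at chr11:113619342-113626028 on the plus strand and overlaps Slc39a11 on the other strand, so its counts are uncertain where reads were not assigned by strand. All are protein-coding genes.

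RefSeq promoter windows on GRCm38.p6 were matched for 2 members, Sst and Sstr2. A stretch of each is printed because cyclic AMP, the messenger that the receptors lower, is known to drive the Sst promoter through a cAMP response element, and because BMP4 acts through Smad proteins. Capitals mark the cAMP response element TGACGTCA and, in Sst, the GC-rich Smad motif GGCGCC. Both stretches read 5′ to 3′ on the strand of the gene.
Sst: tgggGGCGCCtccttggcTGACGTCAgaga
Sstr2: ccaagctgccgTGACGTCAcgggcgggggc
The Sst stretch is chr16:23890881-23890910 on the minus strand, with the first base of TGACGTCA 48 bases and that of GGCGCC 62 bases before the RefSeq start. It falls inside the longer Sst gene model of GENCODE. The Sstr2 stretch is chr11:113619258-113619287 on the plus strand, with the motif 58 bases before the start. Among 32851 promoter windows of 250 upstream bases, TGACGTCA stood in 508 (1.55%) and GGCGCC in 3149 (9.59%). Each motif reads the same on both strands, and the 2 motifs do not overlap each other. A match is a string of letters, not evidence that a factor binds there.

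Of 3072 wells, 1006 held at least 2000 transcripts and were kept, 30 to 268 cells a plate. The sums over the cells of 1 plate and condition held 98168 to 1251870 transcripts, and the 9 cells of Tac1 plate 2 at 24 h were too few for a sum. On Tac1 plate 1, 70.8% of untreated and 21.4% of 4 d wells were kept. The shares were 78.1% and 12.5% for Gcg plate 2, but 65.6% and 70.3% for the Gip plate. All 8 plates use the same 384 well numbers, and 0 kept cells had counts identical to those of another. The 13 pan-endocrine markers summed to 0.785 to 8.56% of transcripts in untreated, 1.09 to 8.20% in 24 h and 0.677 to 4.66% in 4 d sums of the 5 plates. The 12 enterocyte markers summed to 0.112 to 2.90%, 0.269 to 2.60% and 0.172 to 3.51%, with every enterocyte marker detected in the Gcg sums and Alpi, Lct and Mttp at 0 in the untreated Tac1 sums. The 7 goblet markers summed to 1.27% untreated and 2.45% at 4 d on Gcg plate 1, to 0.270 and 1.58% on Gcg plate 2 and to 0.277 and 0.440% on the Gip plate, but to 0.199 and 0.215% on Tac1 plate 1 and 0.282 and 0.210% on Tac1 plate 2. The pan-endocrine markers went from 8.45 to 4.13% and from 8.56 to 4.66% at 4 d on those Tac1 plates. Sstr1 in cells chosen by these markers is given with its results. Levels are in CPM, which sets every sum to the same total.

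Sst was made in quantity by few cells. Of the 1006 cells, 60 took at least 5% of their transcripts from Sst and are called Sst-high cells here, a cut set after the values were seen. Just inside the cut lay cells at 5.49 and 5.91%, just outside it cells at 4.04 and 3.95%, and 26 cells lay between 2 and 10%. The Gip plate held 46 of them, Tac1 plate 1 held 4, the Gcg plates 2 and 3, the Tac1 24 h plate 3 and the second Tac1 4 d plate 2. Tac1 plate 2 and the first Tac1 4 d plate held 0.

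Sst-high cells also carried Hhex, a transcription factor known from somatostatin cells. Hhex was detected in 52 of the 60 (86.7%) and in 39 of the other 946 cells (4.12%), with a median depth of 8397 transcripts against 5457. Gip transcripts were found in 58 of the 60, and 46 of the 60 were sorted by the Gip reporter. Tac1 transcripts were found in 5 of the 60.

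A low level of Sst was found in most other cells of several plates. Every one of the other cells held Sst on Tac1 plate 1, the Gip plate and the Tac1 24 h plate, at medians of 23.1, 37.2 and 24.1 transcripts a cell. On Tac1 plate 2, which had no Sst-high cell, 3 of 41 cells (7.32%) held Sst. Wells with fewer than 500 transcripts, 1384 in all, gave Sst at 618 CPM on Tac1 plate 2 and 1000 CPM on Gcg plate 1, and at 71447 CPM on the Gip plate and 85973 CPM on the Tac1 24 h plate. Near-empty wells held least Sst on the plate whose kept cells held least and most on the plate whose kept cells held most, and a few Sst transcripts in a cell are not read as expression below.

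**Figure D1:**
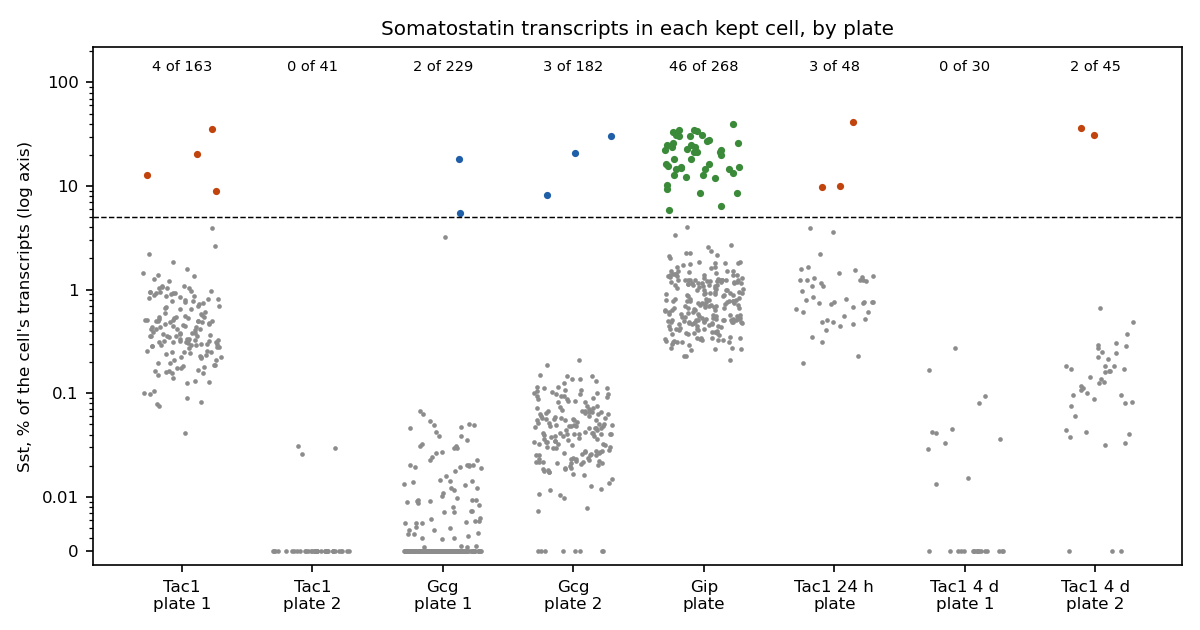
Sst as a percentage of the transcripts of each kept cell, on a log axis with cells at 0 drawn at the bottom, by plate with all conditions together; points are spread sideways at random within a plate. The dashed line is the 5% cut, coloured points are Sst-high cells, and the numbers at the top count them among all cells; the Gip plate had 46 of 268, which were 11 of 63 untreated, 15 of 70 at 24 h and 20 of 135 at 4 d.

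Where sums of the Gcg and Gip plates held Sst-high cells, these held most of the Sst, but this was not so in every Tac1 sum. Sst on the Gip plate was 72299.7 CPM untreated, 77790.1 at 24 h and 48775 at 4 d. On Tac1 plate 1 it was 15949, 7196 and 6183 CPM. Sst-high cells of that plate held 78.2% of it untreated and 41.6% at 24 h, and 0 of its 41 cells at 4 d were Sst-high. Sst on Gcg plate 2 was 2827, 7150 and 511 CPM, and on Gcg plate 1 it was 44.5, 2194 and 38.3 CPM. Tac1 plate 2 held 1 Sst transcript untreated and 0 at 4 d. The single-condition Tac1 plates had 73064 CPM at 24 h, and 285 and 21982 CPM at 4 d. The Gip plate stood highest among the 5 plates in every condition, and the conditions overlapped across plates.

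A single cell could set the level of a sum. At 24 h, 2 of 70 cells held 94.2% of the Sst on Gcg plate 1 and 1 of 83 cells held 94.7% on Gcg plate 2. Sst-high cells of the Gip plate held 94.3, 94.9 and 87.7% of Sst in the 3 conditions. They made up 17.5% (Wilson 95% interval 10.04 to 28.6) of untreated cells, 21.4% (13.4 to 32.4) of 24 h cells and 14.8% (9.80 to 21.8) of 4 d cells, intervals that overlap and cover counting error only.

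BMP4 gave no called change in Sst. With the plate as a block over 14 sums, Sst differed from untreated by 1.73 ± 0.91 (log2 ± SE) at 24 h (adjusted p = 1.00) and by -1.14 ± 0.77 at 4 d (adjusted p = 0.55, edgeR's quasi-likelihood test with Benjamini-Hochberg adjustment over 8309 genes). Between 4 d and 24 h the difference was -2.87 ± 0.93 (adjusted p = 0.25). Without the Sst-high cells, a choice made after seeing the data, the 24 h and 4 d differences were 0.46 and 0.55 (adjusted p = 1.00 and 0.48). The sign at 4 d thus depended on the Sst-high cells of the 5 plates in the fit. With genes of low count kept in the fit, the 3 differences were nearly the same, 1.73, -1.20 and -2.92, and passed (adjusted p = 1.9e-04, 0.0016 and 6.7e-14).

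Within the Gcg line Sst was at 3.37 ± 0.90 at 24 h (adjusted p = 1.00) and at -1.60 ± 0.82 at 4 d (adjusted p = 0.77). The 24 h value was 1.44 without Gcg plate 1 (adjusted p = 0.032), 5.54 without Gcg plate 2 (adjusted p = 6.5e-25) and 0.78 without the Sst-high cells (adjusted p = 1.00), and it passed in 5 of 15 alternatives. The 4 d value was -2.30 without Gcg plate 1 (adjusted p = 2.5e-06) and -0.07 without Gcg plate 2. It also passed with no filter on low counts (-1.67, adjusted p = 0.0081), and was 0.25 without the Sst-high cells. In the Tac1 line the 4 d value was -1.27 ± 1.05 (adjusted p = 0.64). It passed without Gcg plate 1 (-1.23, adjusted p = 0.017) and without Gcg plate 2 (-1.25, adjusted p = 0.033), was -5.56 without Tac1 plate 1, and was positive with cells of at least 1000 transcripts (0.94) and without the Sst-high cells (0.80), with no call in these 3 settings.

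Between untreated lines, Sst was 4.46 ± 1.30 higher on the log2 scale on the Gip plate than in the mean of the Gcg and Tac1 lines (adjusted p = 0.056 over 9169 genes). With 1 Gip plate, the spread in that test came from the other lines. Over 13 alternatives it ran from 3.11 to 9.36 and passed in 10. It was 3.11 without Sst-high cells (adjusted p = 0.0078), 6.90 without Gcg plate 2 and 9.36 without Tac1 plate 1 (adjusted p = 1.0e-07 and 0.0017). The other untreated cells of the Gip plate held Sst at 5608 CPM, and near-empty wells of the plate at 71447 CPM. The difference without Sst-high cells is therefore not read as expression in those cells. Sst in the Gcg line against the Tac1 line was at -2.60 ± 1.44 (adjusted p = 0.25). That value was -7.49 without Gcg plate 2 (adjusted p = 6.5e-05) and turned to 7.18 without Tac1 plate 1 (adjusted p = 0.056), so its direction depended on 1 plate.

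Sstr1, a receptor that couples to inhibitory G proteins and lowers cyclic AMP, was low in untreated cells and higher after BMP4 on every plate that held both. On Tac1 plate 1 it was 30.4 CPM untreated, 106 at 24 h and 340 at 4 d. On Tac1 plate 2 it was 9.59 CPM untreated, from 1 transcript, and 171 at 4 d. On Gcg plate 1 it was 4.68, 52.1 and 108 CPM, on Gcg plate 2 it was 8.92, 48.5 and 209 CPM, and on the Gip plate it was 14.7, 41.3 and 155 CPM. The 3 conditions did not overlap: untreated sums ended at 30.4, 24 h sums ran from 41.3 to 106, and 4 d sums began at 108 CPM.

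Over those plates Sstr1 averaged 13.6 ± 9.99 CPM untreated (SD, n = 5), 61.9 ± 29.5 at 24 h (n = 4) and 197 ± 87.8 at 4 d (n = 5). The single-condition Tac1 plates had 41.5 CPM at 24 h and 336 and 834 CPM at 4 d, of which the last was the highest of any sum. Near-empty wells of those 4 d plates gave Sstr1 at 475 and 437 CPM, from 13 and 12 transcripts. Those of Tac1 plates 1 and 2, with conditions together, gave 166 and 143 CPM from 4 and 3 transcripts, above the untreated levels of these plates. The part of such RNA in the levels was not tested. On 4 plates near-empty wells held 0 Sstr1 transcripts: both Gcg plates, the Gip plate and the Tac1 24 h plate.

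**Figure D2:**
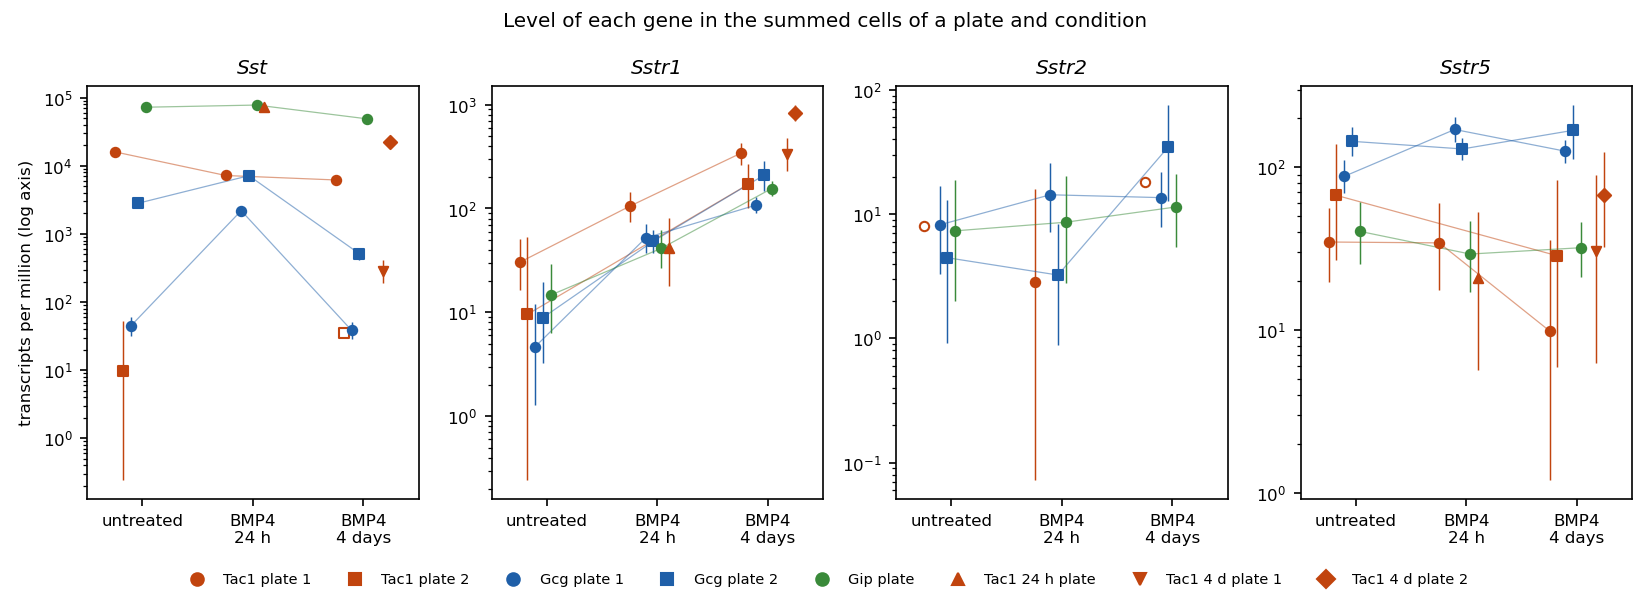
Levels in CPM of Sst, Sstr1, Sstr2 and Sstr5 (log axes) in the sum of each plate and BMP4 condition, with exact Poisson 95% intervals. Filled symbols are measured levels and open symbols the upper limit that a count of 0 allows; Sstr1 lay below 31 CPM in untreated sums and at or above 108 CPM in every 4 d sum.

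In the fit, Sstr1 rose by 2.24 ± 0.29 at 24 h (adjusted p = 0.0019), on 4 of 4 plates with both sums. At 24 h 0.0963% of the 8309 genes passed, 8 genes in all, and Sstr1 was the 1 of the 3 tested members among them. At 4 d it rose by 4.03 ± 0.27 (adjusted p = 5.2e-07), on 5 of 5 plates, where 3.33% of genes passed, and it was again the 1 member of 3. From 24 h to 4 d it rose by a further 1.80 ± 0.23 (adjusted p = 0.0044), a comparison in which 0.397% of genes passed. These contrasts share sums. The last call was lost without the Gip plate (1.76, adjusted p = 0.061) and without Tac1 plate 1 (1.78, adjusted p = 0.11).

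The Sstr1 change was also fitted within the lines that have 2 plates. In the Gcg line Sstr1 was higher at 4 d by 4.60 ± 0.44 (adjusted p = 0.0039), where 0.277% of genes passed. In the Tac1 line it was higher by 3.80 ± 0.46 (adjusted p = 0.0086), where 2.01% passed. The Tac1 call was lost without Tac1 plate 1 (4.47, adjusted p = 0.21) or without Tac1 plate 2 (3.65, adjusted p = 0.14), settings that leave 1 Tac1 plate whose spread is taken from the other lines. The call was also lost with cells of at least 4000 transcripts (3.48) and without cells led by Sst (4.49). These settings likewise leave 1 Tac1 plate with both sums, since a sum needs 10 cells. The 16 untreated cells of Tac1 plate 2 had a median of 3770 transcripts. On Tac1 plate 1 at 4 d, 36 of 41 cells were led by Sst. At 24 h the Gcg line gave 2.90 ± 0.45 (adjusted p = 0.077), where 0.0722% of genes passed; the difference passed in 7 of 16 alternatives.

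The lines did not differ detectably in this change. The 4 d difference of the Gcg line minus that of the Tac1 line was 0.81 ± 0.66 for Sstr1 (adjusted p = 0.77). In that comparison 0% of genes passed in edgeR's quasi-likelihood test, against 22 genes in DESeq2 and 754 genes at an unadjusted p below 0.05. Untreated, Sstr1 was at -1.86 ± 0.90 in the Gcg line against the Tac1 line (adjusted p = 0.17).

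**Figure D3:**
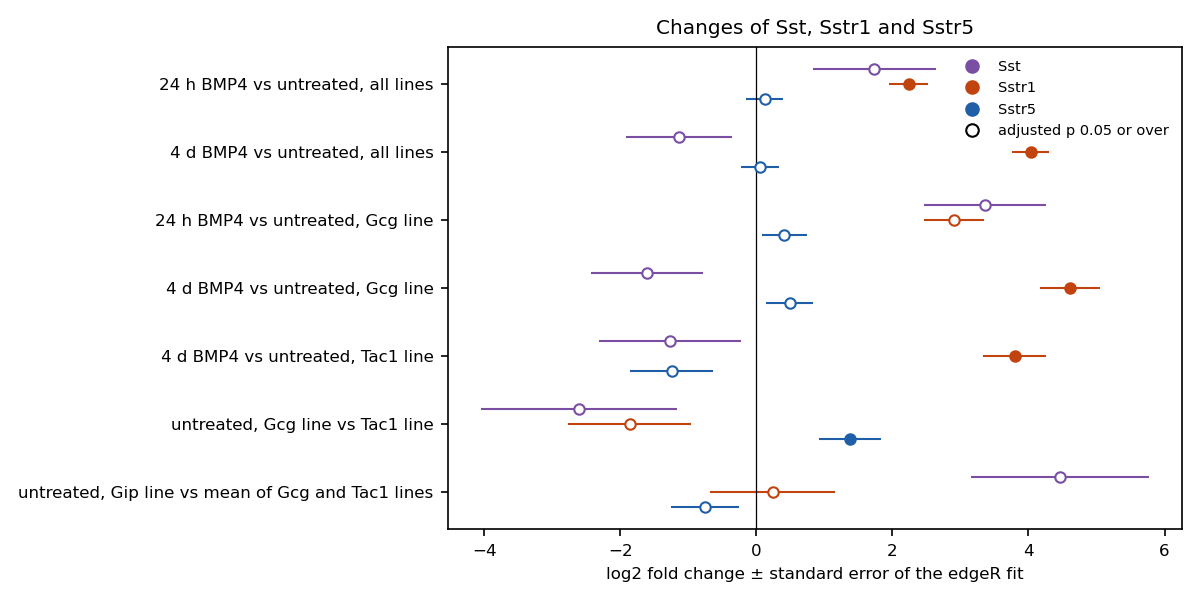
Differences in Sst, Sstr1 and Sstr5 between BMP4 conditions, over all lines and within a line, and between untreated lines, in log2 units, with bars for the standard error. Filled points had an adjusted p under 0.05; those of Sstr1 at 24 h and 4 d lay at 2.24 and 4.03 over all lines, where those of Sstr5 were 0.12 and 0.05.

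More cells held Sstr1 after BMP4 when every cell was thinned to 2000 transcripts. On the 5 plates the share with at least 1 Sstr1 transcript was 3.28% untreated and 25.0% at 4 d, a difference of 21.7 ± 4.35 percentage points (SD, n = 5) with 5 of 5 plates higher. At 4 d the shares were 34.1 and 33.3% on the Tac1 plates, 20.2 and 20.8% on the Gcg plates and 16.5% on the Gip plate. The exact two-sided sign-flip permutation test gave p = 0.0625, the smallest that 5 plates allow. At 24 h the share was 10.5% against 2.54%, a difference of 7.97 ± 1.67 points on 4 of 4 plates (exact permutation p = 0.125, the smallest that 4 plates allow). Unthinned, the differences at 4 d and 24 h were 31.3 and 17.4 points. For at least 3 Sstr1 transcripts in a thinned cell they were 3.66 points (4 of 5 plates higher, exact permutation p = 0.125) and 0.472 points (1 of 4 plates, p = 1).

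The receptors were also counted in cells with little endocrine RNA. Among 169 cells with under 0.5% of transcripts from the pan-endocrine markers, 1.78% held Sstr1 (Wilson 95% interval 0.606 to 5.09), 2.37% held Sstr5 and 49.1% held Sst. Among the other 826 cells, 17.3% held Sstr1, 13.8% held Sstr5 and 68.3% held Sst. Median depths were 6056 and 5693 transcripts. The split was not made within lines, and the pan-endocrine share was 3.87 to 8.56% in Tac1 sums and 0.677 to 1.41% in Gcg and Gip sums, so these shares also compare lines. In the 826 cells alone, an alternative added after seeing the data, Sstr1 was higher by 2.09 at 24 h (adjusted p = 9.7e-05) and by 4.21 at 4 d (adjusted p = 2.5e-11). In the cells whose pan-endocrine markers summed to more than the other marker lists combined, goblet and enterocyte lists included, it was higher by 2.05 (adjusted p = 7.3e-04) and 3.98 (adjusted p = 3.8e-09). That choice left out most cells of the Gcg plates. In every Gcg sum the enterocyte list alone exceeded the pan-endocrine list, for example 2.90 against 0.785% untreated on Gcg plate 1.

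Sstr5, a receptor of the same inhibitory coupling, differed between lines and gave no called difference with BMP4. On the Gcg plates it was 87.8 CPM untreated, 170 at 24 h and 125 at 4 d on plate 1, and 144, 129 and 168 CPM on plate 2. The Gip plate had 40.4, 29.3 and 32.0 CPM. On Tac1 plate 1 it was 34.7, 34.3 and 9.85 CPM, the last from 2 transcripts. On Tac1 plate 2 it was 67.1 CPM untreated and 28.5 at 4 d, and the single-condition Tac1 plates held 20.8, 30.6 and 67.3 CPM. Every Gcg sum lay above every Tac1 and Gip sum, and within a line the conditions overlapped or rested on few transcripts.

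Untreated, Sstr5 was higher in the Gcg line than in the Tac1 line by 1.37 ± 0.46 (adjusted p = 0.039), the 1 member of 3 that passed where 16.4% of 9169 genes did. This call was lost without either Gcg plate (1.57 and 0.98, adjusted p = 0.071 and 0.39), without Tac1 plate 1 (0.81, adjusted p = 0.36) and with DESeq2 (1.30, adjusted p = 0.34). The lines sit on different plates, so line and plate cannot be told apart. Sstr5 on the Gip plate was at -0.76 ± 0.50 against the mean of the other lines, a comparison in which 3.57% of genes and 0 of 3 members passed.

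BMP4 gave no called change in Sstr5, at 0.12 ± 0.28 at 24 h (adjusted p = 1.00) and 0.05 ± 0.28 at 4 d (adjusted p = 0.98) over all lines. At 4 d it was at 0.49 ± 0.34 in the Gcg line (adjusted p = 0.86) and at -1.25 ± 0.61 in the Tac1 line (adjusted p = 0.39). The difference between these was 1.74 ± 0.70, with an unadjusted p of 0.034 and an adjusted p of 0.54. The thinned share of cells with Sstr5 was 10.9% untreated and 10.1% at 4 d (exact permutation p = 0.875), and 12.1 and 16.4% at 24 h (p = 0.75).

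Sstr2, the main inhibitory receptor of many endocrine tissues, was near the limit of detection. On the 4 plates that list it, sums held 0 to 17 transcripts. On Gcg plate 1 it was 8.20 CPM untreated, 14.3 at 24 h and 13.6 at 4 d. On Gcg plate 2 it was 4.46, 3.24 and 34.8 CPM, and on the Gip plate it was 7.34, 8.61 and 11.4 CPM. Tac1 plate 1 held 1 Sstr2 transcript in 163 cells. Sstr2 did not pass the filter on low counts in the fit over plates and conditions. The thinned share of cells with Sstr2 was 0.391% untreated and 1.90% at 24 h (4 plates, exact permutation p = 0.5), and 0.313 and 0.514% at 4 d (5 plates, p = 1), so no difference was detectable at this depth. Sstr3, listed on the same plates, had 0 to 6 transcripts a sum, and Sstr4 and cortistatin, a related ligand, were not analysed here.

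Receptors were then compared between cells grouped by the hormone gene with the most transcripts in them. Sst-high cells were set apart first, and Sst was left out when the other cells were grouped. The fits count Sst as any other hormone unless said otherwise. In the Gcg line 180 of 411 cells (43.8%) were led by Gcg, 112 (27.3%) by Nts, the neurotensin gene, 51 by Cck, 27 by Pyy and 26 by Gip. On the Gip plate 220 of 268 cells were led by Gip apart from the Sst-high cells. In the Tac1 line 212 of 327 cells (64.8%) were led by Tac1 and Tph1 together and are called enterochromaffin, the serotonin cells of the gut. Another 72 had no leading hormone, through a tie or fewer than 5 transcripts of each hormone other than Sst. With Sst counted, 120 cells of the line were led by Tac1 and Tph1, 151 by Sst and 32 by no hormone.

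Within the Gcg line, Sstr1 was low in Gcg cells and higher in Nts cells. On Gcg plate 1, Gcg cells had 0 Sstr1 transcripts in 37 untreated cells, 17.3 CPM at 24 h and 13.1 at 4 d, from 4 and 7 transcripts. Nts cells of that plate had 12.9 CPM untreated, from 3 transcripts, 103 at 24 h and 213 at 4 d. On Gcg plate 2, Gcg cells had 0 in 56 untreated cells and 9.98 CPM at 24 h, where Nts cells had 153 CPM. At 4 d the Nts cells of plate 2 reached 331 CPM. Nts cells were higher in each of the 4 plate and condition blocks, 1 of them the untreated cells of plate 1, that held at least 10 cells of both classes.

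The fitted difference was -3.45 ± 0.43 for Gcg minus Nts cells (adjusted p = 2.1e-04), over 4 shared blocks on 2 plates, where 0.458% of 8290 genes were called lower and 0.241% higher. It passed in 12 of 12 alternatives, at -4.02 to -3.31. Against the mean of the classes that share their plates, Gcg cells were lower by -2.74 ± 0.46 (adjusted p = 0.013), a contrast with 0.265% of genes called lower. Nts cells were higher by 1.86 ± 0.38 (adjusted p = 0.045), with 0.229% called higher. That second call was lost, at 1.85 (adjusted p = 0.095), when Sst-high cells were split off and Sst was left out in classing the others. Nts cells were not set apart from every other class. Nts minus Pyy cells was at 0.70 ± 0.67 over 1 shared block. Cck minus Nts cells was at -1.44 ± 0.51 over 2 shared blocks and did not pass.

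Thinned to equal depth, 0 of 93 untreated Gcg cells held Sstr1, which allows a share of up to 3.97% by the Wilson interval. At 24 h 2 of 53 and at 4 d 2 of 33 Gcg cells held it. Of Nts cells 1 of 24 untreated, 7 of 29 at 24 h (24.1%, interval 12.2 to 42.1) and 18 of 58 at 4 d (31.0%, 20.6 to 43.8) held it. Over all conditions 5 of 27 Pyy cells, 2 of 26 Gip cells and 1 of 51 Cck cells of the line held it. Unthinned, Sstr1 over all conditions was 157 CPM in Nts cells, 88.0 in Pyy, 46.3 in Gip, 42.8 in Cck and 7.08 in Gcg cells, and the conditions differ in their share of these classes.

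**Figure D4:**
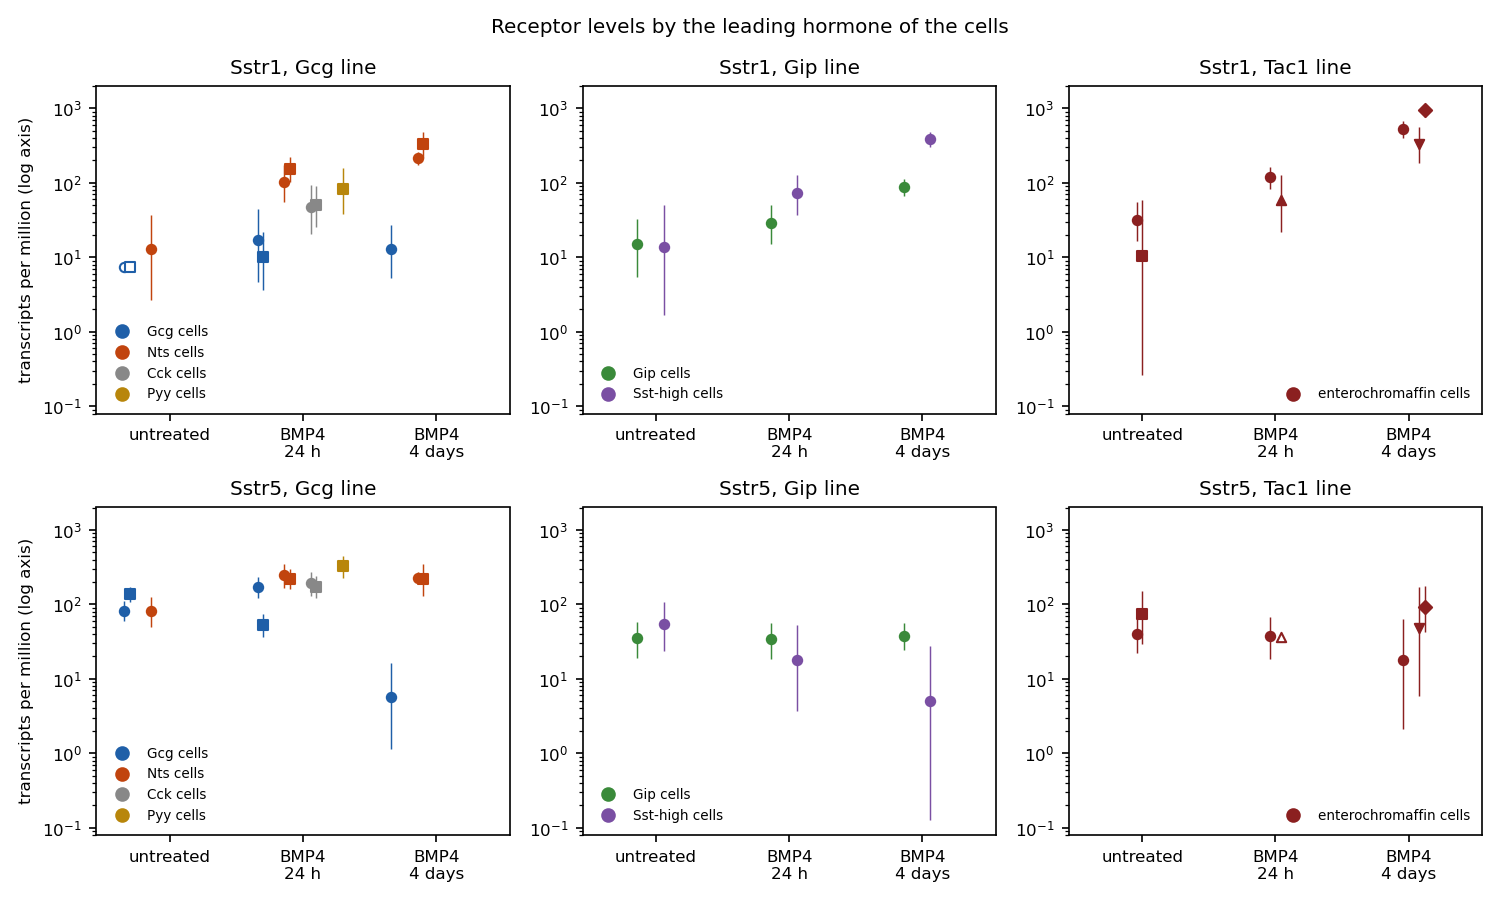
Sstr1 (top) and Sstr5 (bottom) in CPM on a log axis, by BMP4 condition and by the leading hormone of the cells. Sums of at least 10 cells are shown with exact Poisson 95% intervals. Outside the Sst-high cells, Sst was left out when the leading hormone was found. Colours are classes and symbol shapes are plates. Open symbols are the upper limit of a count of 0; in the Gcg line the Nts cells lay above the Gcg cells for Sstr1, with 213 and 13.1 CPM at 4 d on Gcg plate 1.

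Sstr5 was shared more evenly in the Gcg line before BMP4. Untreated, it was 82.3 CPM in Gcg and 81.5 in Nts cells of Gcg plate 1, and 137 CPM in the Gcg cells of plate 2. At 24 h it was 169 in Gcg and 245 in Nts cells of plate 1, and 53.2 and 222 CPM on plate 2. At 4 d the 29 Gcg cells of plate 1 held 3 transcripts, 5.62 CPM (Poisson 95% interval 1.16 to 16.4), and its 46 Nts cells 119 transcripts, 228 CPM (189 to 273). The fitted difference over the blocks, -1.51 ± 0.53 for Gcg minus Nts cells, did not pass (adjusted p = 0.22). Over all conditions Sstr5 was 246 CPM in Pyy, 202 in Nts, 187 in Cck, 110 in Gip and 77.1 in Gcg cells.

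Sstr2 in the Gcg line was found mostly in Nts cells, at 23.2 CPM (Poisson 95% interval 15.4 to 33.6) from 28 transcripts, against 2.92 CPM (1.17 to 6.01) in Gcg cells. The fitted difference of Gcg minus Nts cells was -3.05 ± 1.00 and did not pass (adjusted p = 0.20). Of the 28 transcripts, 15 came from Nts cells of Gcg plate 1 at 4 d.

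On the Gip plate the Sst-high cells themselves held Sstr1. They made up 17.2% of its cells and 25.6% of its transcripts, but 92 of its 168 Sstr1 transcripts (54.8%). Their Sstr1 was 13.8 CPM untreated, from 2 transcripts, 72.1 at 24 h and 387 at 4 d. Cells led by Gip had 15.0, 29.0 and 88.2 CPM. At 4 d the Poisson 95% intervals, 306 to 483 and 67.0 to 114, did not overlap. On other plates Sst-high cells held few or none: 4 of 120 Sstr1 transcripts on Tac1 plate 1, 1 of 179 on Gcg plate 1, 0 of 102 on Gcg plate 2, 0 of 8 on the Tac1 24 h plate and 0 of 124 on the second Tac1 4 d plate, where 2 to 4 cells a plate were Sst-high.

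Thinned to 2000 transcripts, 12 of 19 Sst-high cells at 4 d held Sstr1 (63.2%, interval 41.0 to 80.9) and 10 of 112 Gip cells (8.93%, 4.92 to 15.7). The fitted difference of Gip minus Sst-high cells over 3 blocks of 1 plate was -1.46 ± 0.40 and did not pass (adjusted p = 0.15), a class chosen after seeing the data. Sstr5 was low in both: Sst-high cells had 55.1, 18.0 and 4.97 CPM, from 8, 3 and 1 transcripts, and Gip cells 35.0, 33.8 and 38.0 CPM.

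In the Tac1 line Sstr1 transcripts were found in enterochromaffin cells before BMP4, and at higher levels after it. Untreated they had 31.7 CPM on Tac1 plate 1 and 10.6 on plate 2, the latter from 1 transcript. At 24 h they had 119 CPM on Tac1 plate 1 and 58.8 on the 24 h plate. At 4 d they had 522 CPM on Tac1 plate 1, and 336 and 945 CPM on the 4 d plates. The 4 d levels lay above every untreated and 24 h level. Near-empty wells gave Sstr1 at 166 and 143 CPM on Tac1 plates 1 and 2, with conditions together, from 4 and 3 transcripts. They gave 475 and 437 CPM on the 4 d plates and 0 on the 24 h plate. The part of such RNA in the enterochromaffin levels was not tested. The thinned share of enterochromaffin cells with Sstr1 was 9.09% untreated (6 of 66), 14.5% at 24 h (11 of 76) and 60.3% at 4 d (41 of 68). These shares pool all plates of the line, the single-condition plates included.

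Cells of the Tac1 line with no leading hormone, Sst left out, also held Sstr1 at 4 d, at 163, 521 and 825 CPM on Tac1 plate 1 and the 4 d plates. Sstr5 in enterochromaffin cells was 41.1 CPM over all conditions, from 50 transcripts, and 1 Sstr2 transcript was found in 212 cells.

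Sstr1 and Sstr5 were also counted in the same cells at equal depth, where dropout limits joint detection. Co-occurrence was not tested. Cells were pooled over all plates of a line. The treated Tac1 cells thus include those of the single-condition plates, which hold no untreated cells. In the Tac1 line at 4 d, 61 of 128 cells held Sstr1 and 5 held Sstr5, and 3 held both, which is 4.92% of the first and 60.0% of the second. In the Gcg line at 24 h, 15 of 152 cells held Sstr1 and 43 Sstr5, and 8 held both (53.3 and 18.6%). At 4 d in that line 24 of 118 held each, and 5 held both (20.8% of each). On the Gip plate at 4 d 22 of 133 held Sstr1 and 4 Sstr5, with 1 cell holding both. Any of the 3 receptors was found in 14.3% of untreated and 49.2% of 4 d Tac1 cells, in 20.1 and 36.4% of Gcg cells, and in 4.76 and 19.5% of Gip cells. The Tac1 plates differed at 4 d. Sstr1 was in 34.1 and 33.3% of cells on Tac1 plates 1 and 2, and in 51.7 and 62.8% on the 4 d plates.

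Genes of the pathway lists, which also hold D cell genes and other inhibitory receptors, were read in the same tests of BMP4. The 9 lists held inhibitory G proteins, G beta and gamma subunits, adenylyl cyclases, channels, phosphatases, desensitizing kinases and arrestins, D cell genes and other inhibitory receptors. Of their 60 symbols, which include older and newer names of the same kinase genes, 40 were tested. At 24 h 0 of 40 passed in edgeR's quasi-likelihood test, beside 0.0963% of all genes. DESeq2 called 0, and 2 had an unadjusted p below 0.05. At 4 d 1 rose and 1 fell, beside 2.41% of all genes higher and 0.927% lower. Counts of 1 gene are too small to set the lists apart from all genes. At 4 d 8 had an unadjusted p below 0.05 and DESeq2 called 4. The median difference of the 40 genes at 4 d was -0.22 in log2 units, beside -0.0042 over all genes tested.

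Grk4, a G-protein-coupled receptor kinase, rose at 4 d by 2.35 ± 0.38 (adjusted p = 0.0037), the 1 of 7 desensitization genes that passed. It went from 1737 to 10904 CPM on Tac1 plate 1, from 3327 to 17815 on Tac1 plate 2, from 2234 to 2659 on Gcg plate 1, from 990 to 3733 on Gcg plate 2 and from 391 to 4613 on the Gip plate. It overlaps Gm42560 and Mir467g on the other strand, so its level is uncertain where reads were not assigned by strand. Cacna1h, a T-type calcium channel subunit, fell by 1.12 ± 0.21 (adjusted p = 0.0078), the 1 of 4 calcium channel genes that passed. It was 262, 230, 118, 123 and 259 CPM untreated and 162, 66.6, 35.9, 63.9 and 105 CPM at 4 d, in the same plate order, and overlaps Tpsg1 on the other strand. The BMP targets Id1, Id2 and Id3 rose at 4 d by 5.72, 3.96 and 5.05.

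Between untreated lines more genes of the same lists passed. On the Gip plate, against the mean of the other lines, 9 of 40 genes were higher and 1 was lower, beside 2.09% of all genes higher and 1.47% lower; DESeq2 called 5 of the 40, with 0 of the D cell genes and 2 of the other inhibitory receptors. By edgeR's quasi-likelihood test, all 3 tested D cell genes were higher: Hhex by 4.30 ± 0.55, Isl1 by 2.35 ± 0.49 and Rbp4 by 5.25 ± 0.49 (adjusted p = 2.0e-05, 0.0047 and 2.0e-07). Receptors for other inhibitory signals were higher in 3 of 4 cases: the cannabinoid receptor Cnr1 by 5.05 ± 0.46, the prostaglandin receptor Ptger3 by 3.80 ± 0.51 and the galanin receptor Galr1 by 2.92 ± 0.59. Grk4 was lower by -2.31 ± 0.62 (adjusted p = 0.033). Isl1 is on the pan-endocrine list as well as the D cell list. Over all conditions the Gip plate held 17.2% Sst-high cells, and 220 of its 268 cells were led by Gip. The part of either group in these levels was not tested.

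In the untreated Gcg line against the Tac1 line 7 of the 40 were higher and 8 lower, beside 8.77% of all genes higher and 7.65% lower; DESeq2 called 6 of the 40. Kcnj3, a subunit of the potassium channel that inhibitory receptors open, was at 37.5 and 80.3 CPM on the Gcg plates and had 0 transcripts on both Tac1 plates. Cacna1c, an L-type calcium channel gene, was at 21.1 and 35.7 CPM and likewise at 0 on both Tac1 plates. Gnai1, an inhibitory G alpha gene, was at 64.4 and 135 CPM against 6.51 and 0. Adcy1, an adenylyl cyclase, went the other way, with 2.34 and 10.4 CPM against 325 and 422. These calls had adjusted p values of 1.1e-04, 0.0020, 1.2e-04 and 2.6e-09.

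Across the 14 sums, the genes whose log level followed each member most closely were found by Pearson correlation, as a description over sums that share plates and conditions. Sst was followed by Rspo4 (0.92), Pbx3 (0.91), Upp1 (0.90), Atxn10 (0.89) and Hhex (0.89). Sstr1 was followed by Id3 (0.94), Id1 (0.93), Pcsk1n (0.90), Nt5e (0.90) and Smad6 (0.90), of which Id1, Id3 and Smad6 are BMP targets. Sstr5 was followed by Ttyh2 (0.91), Hoxb9 (0.90), Kcnk1 (0.89), Donson (0.89) and Tmem54 (0.88).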

How the data were processed

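Single cells were processed by the SORT-seq form of CEL-seq2 and sequenced as paired ends, per the labels' protocols. The submitters' processing notes name BWA 0.6.2-r126 and mm10; no source used here gives the strand of counting, the annotation or the filters. The deposited values are expected counts, identifier-corrected transcripts per gene and well, which were summed and rounded for the tests. Inverting the correction with 4096 identifiers (6 bases) gave whole numbers for 100% of values, whereas the labels name 4 bases. Spike-ins were removed, as were mitochondrial genes, which the Tac1 tables list and the Gcg and Gip tables do not. Genes listed by Tac1 plates only or by Gcg and Gip plates only (1.33 to 2.05% of transcripts) were then left out, and a used gene that a plate does not list was taken as 0 there.

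Counts of cells with at least 2000 transcripts were summed per plate and condition (at least 10 cells, 14 sums) and fitted with edgeR 4.0.16 in R 4.3.3: TMM scaling, the default filter on low counts, plate as block, quasi-likelihood test, Benjamini-Hochberg adjustment, threshold 0.05. DESeq2 1.42.0 was an alternative. Conditions of 1 plate were paired, since all 3 sat on it. Deviations of such sums from the condition means correlated at 0.36 to 0.73 in each of 13 pairs. Sums of 1 plate also share a line, so these correlations cannot separate plate from line. On counts simulated for 4 d against untreated (7903 genes), the fit called 36.5% of 63 genes changed by 1 log2 unit, 98.5% of 66 changed by 2, and 0.117% of unchanged genes. The changed genes were drawn above a lower limit on the mean count, with the spread of the trend over genes. The rates need not hold for genes with fewer counts or a larger spread.

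Cells were classed by the hormone with the most transcripts (at least 5) and fitted as 23 sums per plate, condition and class, with plate and condition together as block. The classes fell into groups that share no plate, so each was compared with the classes it shares plates with, not with all. Sums carry exact Poisson and shares Wilson 95% intervals, for counting error only. No doublet caller was run. The members, lists and class rules were chosen with earlier results of these data known. The text names the 4 members, the genes of the pathway lists and the 5 genes closest to each member. Alternatives are given at the end.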

Additional observations from a re-analysis of the deposited data

Results flagged for a closer look

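Over 12 groups of 4 or 5 plates examined for a plate far from the others, 4 stood out, where chance gives about 1 in 20. On the Gip plate Sst was far above the other plates in every condition, at 72299.7 CPM untreated, 77790.1 CPM at 24 h and 48775 CPM at 4 d. Sstr1 at 24 h was highest on Tac1 plate 1, at 106 CPM, against 41.3 to 52.1 CPM on the other 3 plates.

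The 4 d difference in Sstr5 between the Gcg and Tac1 lines, 1.74 in log2 units, stood out because both Gcg plates lay above untreated and both Tac1 plates below. The test of the difference gave an unadjusted p of 0.034 and an adjusted p of 0.54 in edgeR's quasi-likelihood test. The Tac1 sums at 4 d held 2 and 3 Sstr5 transcripts.

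Wells with under 500 transcripts, which enter no comparison, held Sst at 85973 CPM on the Tac1 24 h plate. The 48 kept cells of that plate held it at 73064 CPM.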

How the results depend on the processing

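Sstr1 kept its call in 16 of 16 alternatives at 24 h (1.94 to 2.46) and at 4 d (3.86 to 4.22) over all lines, and in 16 of 16 at 4 d in the Gcg line (4.40 to 4.87). From 24 h to 4 d it passed in 13 of 16 and was at 1.74 (adjusted p = 0.083) without cells led by Sst; leaving out each plate gave 1.69 to 1.99. Sst passed without a filter on low counts at 1.73, -1.20 and -2.92 for 24 h, 4 d and 4 d against 24 h. In the Gcg line at 24 h Sst was at 1.44 (adjusted p = 0.032) without Gcg plate 1 and 5.54 (adjusted p = 6.5e-25) without plate 2. The Sstr1 share differences were 17.4 points (24 h) and 31.3 (4 d) unthinned, and 0.472 and 3.66 for at least 3 transcripts. In the untreated Gcg against Tac1 comparison Sst ran from -7.49 to 7.18. The causes were not tested. Counts of genes called are given next, in the order 24 h, 4 d and 4 d against 24 h over all lines (8, 277 and 33 as reported), 4 d in the Tac1 line (167), 4 d in the Gcg line (23), 24 h in the Gcg line (6), the line difference at 4 d (0), untreated Gcg against Tac1 (1505) and untreated Gip (327), naming those that moved by over 1.5 times. Without the low-count filter they were 46, 654, 324, 483, 158, 22 and 113 for the first 7. With DESeq2 they were 18 (24 h), 124 (4 d against 24 h), 44 and 12 (Gcg line), 22 (line difference), 673 and 103 (untreated). With cells of at least 4000 transcripts they were 151 (4 d), 9 (4 d against 24 h), 0 (Tac1 line), 7 (Gcg line, 4 d) and 578 (Gip). With cells of at least 1000 transcripts they were 138 (4 d against 24 h) and 10 (Gcg line, 24 h), and with sums of at least 5 cells 109 (4 d against 24 h). Without cells led by Sst they were 117 (4 d), 2 (4 d against 24 h), 0 (Tac1 line) and 8 (Gcg line, 4 d). With endocrine cells by the comparison of marker lists they were 76 (4 d against 24 h), 341 (Tac1 line), 51 and 14 (Gcg line), 39 (line difference) and 951 (Gcg against Tac1). That comparison left out most cells of the Gcg plates. Without the replicate block for the plate they were 92 (4 d against 24 h), 43 (Gcg line, 4 d) and 3 (line difference), and Sstr1 was at 2.27, 3.95 and 1.68 (adjusted p = 0.0025, 3.6e-07 and 0.012); removing the block changed no member's call. Among alternatives added after seeing the data, cells with at least 0.5% pan-endocrine transcripts gave 18, 420, 64, 426, 246, 40 and 100 for the first 7 and 582 (Gip), and removal of Sst-high cells gave 10 (4 d against 24 h). Leaving out each plate gave 93 to 344 (4 d), 1 to 123 (4 d against 24 h), 0 to 419 (Tac1 line), 6 to 113 and 4 to 142 (Gcg line), 0 to 101 (line difference) and 797 to 1480 (Gcg against Tac1). Depth limits Sstr2 and Sstr3, whose sums held at most 17 and 6 transcripts, and the Tac1 levels of Sstr5, at most 16.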
